A study of Sus scrofa with 57 samples.

Results

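The regions described here are stretches of DNA that were close to unmethylated in the fat cells of lean pigs and carried methylation in obese pigs. They were taken from a table of regions found by reduced representation bisulfite sequencing (RRBS), in which DNA is cut with the enzyme MspI at CCGG sites, treated with bisulfite and sequenced, so that the share of methylated reads can be read at each CpG. A region was a member when its lean group mean was under 10%. This gave 423 of the 2416 regions in the table, which is 17.5%. The obese mean and the number of CpGs came from the same rows, and genes were assigned by the gene loci listed with the RNA values (genome build Sscrofa10.2).

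The pigs were animals of the second intercross generation between Duroc production pigs and Göttingen minipigs, which are prone to obesity, chosen from the lean and obese ends of the population. They shared housing and had free access to feed, so the groups did not differ by an assigned diet. Mature adipocytes were floated from retroperitoneal fat after collagenase digestion. By their labels the RRBS and capture (mDNAcap) samples came from 10 lean pigs (2 sows, 8 boars) and 13 obese pigs (5 sows, 8 boars), and RNAseq from 5 lean and 5 obese boars. Pig-411, a sow labelled obese, is listed with the lean pigs in the header of the capture comparison. The study's own group sizes also hold more lean and fewer obese pigs than the labels. The RRBS table does not say where this pig was counted.

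DNA methylation in mammals is the addition of a methyl group to the cytosine of a CpG. Most CpGs in a differentiated cell are methylated, while dense runs of CpGs, the CpG islands found at many gene starts and over genes of developmental transcription factors, normally stay free of it. Methylation at an island start usually goes with a silent gene, whereas methylation within a gene body has no such fixed relation to its RNA. No genome sequence of this build was used, so no base sequence of a region is given.

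The table holds 1 mean per group and no value per pig, so the methylation levels carry no error and their depth is unknown. It was limited to regions of 10 or more CpGs that were covered in 3 or more pigs on both sides, and to differences of 10 percentage points or more between the group means. A region under 10% in lean could therefore enter the table only by being higher in obese: all 423 were higher, against 61.1% of the whole table, and nothing is read from that count.

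In lean adipocytes the member regions had a median methylation of 3.88%, with quartiles of 1.57% and 7.04%. Of the 423 regions, 81 were under 1%, 171 between 1% and 5%, and 171 between 5% and 10%. Among the first of these were 43 regions listed below 0.001%, in effect 0. In obese adipocytes the median was 18.0%, the lowest region stood at 10.1% and the highest at 33.8%. The members thus stood near zero in lean and at a low level in obese.

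The difference between obese and lean had a median of 13.2 percentage points, with quartiles of 11.2 and 16.0, and 36 regions (8.51%) differed by 20 points or more. The obese mean was 20% or more in 147 regions and 30% or more in 15. Regions that started lowest did not reach the same obese level as those nearer the limit: the median obese mean was 15.5% where lean was under 5% and 21.5% where lean was 5% to 10%. The differences were close, at 12.96 and 13.8 points. The 10-point minimum sets the lower edge of both.

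**Figure D1:**
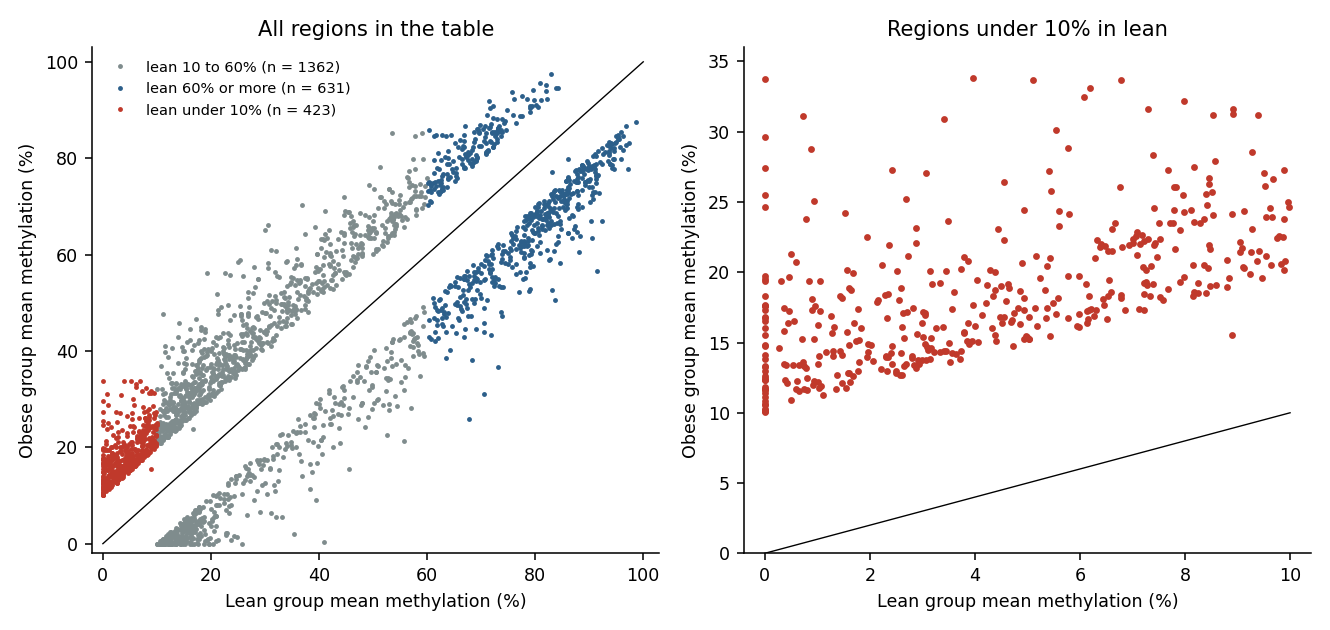
Group mean methylation of each RRBS region in lean (x axis, %) and obese (y axis, %) adipocytes, with 1 point per region and the line of equal values. Left, all 2416 regions in 3 classes by lean mean; right, the 423 regions under 10% in lean, whose obese means lie between 10.1% and 33.8%. The empty band beside the line is the minimum difference of the table.

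The limit at 10% cuts through a continuous distribution. Just inside it stood a region nearest to F13A1, the gene of a coagulation factor XIII subunit, with 9.99% in lean and 24.6% in obese. The next inside were regions nearest to ssc-mir-378-1 (9.96% and 24.98%) and STK25 (9.91% and 20.8%). Just outside were a region nearest to MPPED1 at 10.02% in lean and 32.2% in obese, and 2 regions, nearest to ROPN1 and on C12ORF53, at 10.03% in lean and below 0.001% in obese. The last 2 show the other face of the table: past the limit, regions could also be lower in obese.

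The highest obese mean was on the locus of NKAP, an NF-kappa-B activating protein, on chromosome X (113335160 to 113335444, 15 CpGs), with 3.96% in lean and 33.8% in obese. TMEM38B, an ion channel of the endoplasmic reticulum, had a region of 10 CpGs on chromosome 1 (276768029 to 276768129) that was below 0.001% in lean and 33.7% in obese, the largest difference among the members. A region within SARDH, the sarcosine dehydrogenase of mitochondria, had 5.11% and 33.7%, and one within TMEM151B had 6.19% and 33.1%. DUSP9, a MAP kinase phosphatase on chromosome X, carried a region of 17 CpGs with 8.91% and 31.6%. The other 3 of the 8 highest lay outside loci: 33.7% in obese far from any locus, with F9 the nearest, 32.5% at 4573 bases from SLC6A7 and 32.2% at 1369 bases from BOK.

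Most members were at the smallest size that the table allows. Exactly 10 CpGs were counted in 295 of them, 15 or more in 33 and 20 or more in 8. The region with the most CpGs, 25, lay on an unnamed gene (ENSSSCG00000012359) on chromosome X and had 8.89% in lean and 15.5% in obese. Its difference of 6.65 points is the only one among the members below 10 points, and its deposited difference did not equal that of its means, as in 6 rows of the whole table. The next largest were a region of 23 CpGs within TBC1D30 (7.27% and 19.1%), another of 23 CpGs on YIPF1 (3.34% and 19.2%), and 3 regions of 22 CpGs, of which one lay 3419 bases from DLL4, the gene of a Notch ligand (2.14% and 17.9%), one on NDUFA1 and RNF113A, and one on an unplaced sequence. The table does not tell which pigs or cells carried the methylation.

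The members were short and dense in CpGs. Their median length was 110 bases (range 18 to 553), against 154 bases for the 1362 regions that were partly methylated in lean (10% to 60%) and 181 bases for the 631 regions at 60% or more. They had a median of 10 CpGs per 100 bases, with quartiles of 5.53 and 14.7, against 7.14 in the partly methylated and 5.97 in the mostly methylated regions. Since the number of CpGs was 10 in most regions of each class, length and density are nearly the same measure.

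They also lay closer to the ends of gene loci. Of the 423 members, 170 (40.2%, 95% Wilson interval 35.6% to 44.9%) were within 1000 bases of an end of any gene locus, against 334 of 1362 partly methylated regions (24.5%, 22.3% to 26.9%) and 48 of 631 mostly methylated regions (7.61%, 5.79% to 9.94%). The loci were given without strand, so a start and an end of a gene could not be told apart. On a locus lay 219 members (51.8%, 47.0% to 56.5%), against 45.2% (43.0% to 47.4%) of the 1993 other regions. The 198 members that lay outside a locus on a sequence with loci were a median of 11014 bases from the nearest, and 28 of them were more than 100 kb away. These intervals cover counting error only, and nearby regions are not independent.

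The same features were found in the regions that were under 10% in obese instead. There were 272 of these, none of which was under 10% in lean, and all were lower in obese, again by the construction of the table. Their median went from 15.5% in lean to 2.14% in obese. They had a median of 10.9 CpGs per 100 bases, and 137 of them (50.4%, 44.5% to 56.3%) were within 1000 bases of a locus end. CpG density and closeness to a locus end thus went with low methylation in either group, and were not particular to regions unmethylated in lean.

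**Figure D2:**
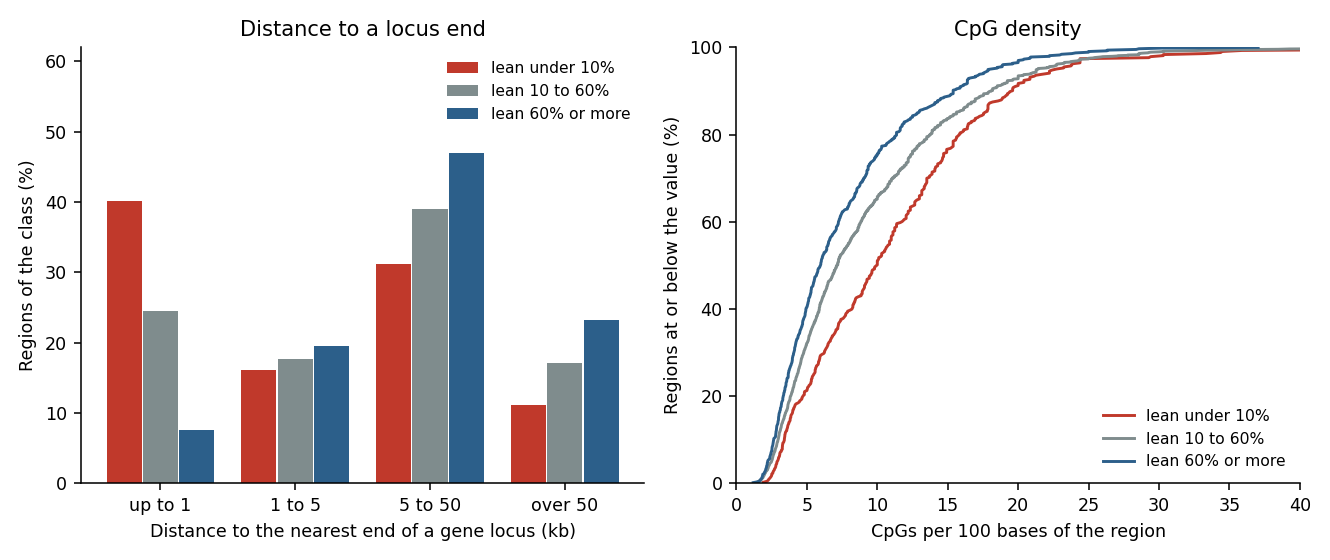
Left, share of regions (%) by distance to the nearest end of a gene locus (kb), for the 3 classes of lean methylation. Right, cumulative share of regions (%) against CpGs per 100 bases. Within 1 kb lay 40.2% of the regions under 10% in lean and 7.61% of those at 60% or more, and the median densities were 10 and 5.97.

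Members were found on each of the 19 assembled chromosomes. Chromosome 6 held the most, 46, followed by chromosome 3 with 38 and chromosome 2 with 36. As a share of the regions listed on a chromosome, they ranged from 9.57% on chromosome 11 to 25.8% on chromosome 14. They were mostly scattered: 7 neighbouring pairs lay within 1000 bases of each other and 16 within 10 kb, and 7 genes carried more than 1 member.

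The largest such group was on PKD1, the polycystin-1 gene, where 3 regions on chromosome 3 between 42322051 and 42323868 had 2.43%, 8.16% and 6.76% in lean and 27.3%, 18.3% and 26.1% in obese. A pair on KANK3 was below 0.001% in lean and at 27.4% and 18.3% in obese. Pairs also lay on PRDM16, LHX6, OTUD7A, SHANK1 and CAPZB. On CAPZB, an actin capping protein subunit, the members were far apart, with 3.88% in lean and 14.9% in obese at one and 5.42% and 27.2% at the other.

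Chromosome X held 27 members (6.38%, Wilson interval 4.42% to 9.13%), against 102 of the 1993 other regions (5.12%, 4.23% to 6.17%). Their levels were higher in both groups, with medians of 7.08% in lean and 21.2% in obese, against 3.68% and 17.7% for the 396 members on other sequences, while the median differences were 14.2 and 13.1 points. Of the 15 members at 30% or more in obese, 3 were on X. Females silence an X chromosome partly by methylating its islands. By label the obese group held 5 sows of 13 pigs and the lean group 2 of 10. With pig-411 counted as lean, the share of sows differed less between the groups. The part of sex in these values was not tested, since no value per pig was given, and without chromosome X the number of members was 396 and the share on a locus 52.3%.

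A list of 236 developmental transcription factors was examined, because these genes often lie in unmethylated islands. Of the list, 201 were found among the loci, and 41 regions of any class lay on them. Members made up 17 of the 41 (41.5%, Wilson interval 27.8% to 56.6%), against 19.6% of all regions on a gene locus and 17.5% of the whole table. The list was chosen with results of these data known, so the share is a description. The regions under 10% in obese gave 7 on the same list. They were a smaller set, with 272 regions of which 123 lay on a locus, against 423 members of which 219 did.

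The 17 members lay on 15 factors. PRDM16, a zinc finger factor known for directing brown fat identity, had the largest difference: a region of 15 CpGs on chromosome 6 (59694532 to 59694619) inside its locus had 3.42% in lean and 30.9% in obese. A second member shortly before it (59694201 to 59694273) had 7.47% and 21.1%. Other parts of the PRDM16 locus did not share this level: a region at 59668437 had 17.8% in lean and 37.8% in obese, and one at 59705665 had 68.8% and 55.6%, so that the latter was lower in obese.

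SOX3, a neural and gonadal factor of the SRY-related family on chromosome X, had a region 735 bases inside an end of its locus, next to another locus, with 0.776% in lean and 23.8% in obese. RUNX1, a factor of blood formation, had 2.88% and 23.2% 4018 bases from a locus end. The LIM homeobox genes LHX5 and LHX6 were alike, with 1.06% and 19.4% on LHX5 and with 1.67% and 19.97% at the higher of the pair on LHX6. On SIM2 a region had 1.61% and 14.8%, and it lay 3443 bases from the neighbouring HLCS. The remaining factors, with differences between 10.6 and 13.2 points, were BARHL2, NKX2-6, EBF3, OTX1, TWIST2, HOXA2, FOXC2, ZIC4 and OTP. The NKX2-6 region also lay on SLC25A37, the mitochondrial iron carrier, whose locus overlaps it.

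A further 8 members lay within 5000 bases of a listed factor without touching its locus. The highest in obese was next to OTX2, with 1.52% in lean and 24.2% in obese. A pair lay beside TBX20 at 0.958% and 0.797% in lean and at 17.6% and 11.6% in obese, and single members lay beside GATA3, TBX2, TBX4, HOXA11 and SOX11.

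Other lists held few members. Of 104 developmental signalling genes, BMP6 had a region with 5.46% in lean and 25.8% in obese, and HEYL, a Notch target, one with 7.78% and 26.1%. Of 84 genes of adipocyte lipid and glucose metabolism, a member lay on TBC1D16, a regulator of Rab proteins, with 3.73% and 20.3%. Both collagen VI genes of the fibroblast list had a member near a locus end: COL6A1 had 5.58% and 18.1%, and COL6A3 had 6.54% and 18.3%. No member lay on the locus of a listed DNA methylation or Polycomb gene, nor of a listed adipocyte, macrophage, endothelial, erythroid or dissociation response gene.

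Of the genes that the study named as candidates, members also lay on TNS3, a protein of focal adhesions, with 8.54% in lean and 31.2% in obese, and on CXCR4, a chemokine receptor, with 1.47% and 18.2%. The other 2 regions on TNS3 were partly methylated in lean, at 26.7% and 32.1%, and had 38.7% and 50.5% in obese. On TBC1D16 the member was the only region of this table.

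A stricter table of the same libraries, which kept only regions covered in 5 or more pigs on both sides, held 610 regions, of which 119 were under 10% in lean. It overlapped 82 of the 423 members. There the median was 4.81% in lean and 18.1% in obese, against 4.14% and 18.5% for the same members in the first table. Of the 82, 72 stayed under 10% in lean and the highest stood at 18.9%, on TWIST2. Since both tables were made from the same pigs, these values are not an independent measure.

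The capture libraries measured methylation in another way, by pulling down methylated fragments with a methyl-binding protein and counting reads in windows. The deposited list held 7401 captured regions that the study had chosen for a difference between the same animals, with 11 libraries in each group. With limma on log2(count + 1), 96.2% of them passed an adjusted p of 0.05: 27.1% of the list were higher and 69.0% lower in obese. With the counts scaled by the median of ratios instead, 2125 were higher and 807 lower. Only 2 of them overlapped a member. In share of regions, 0.473% of the members (Wilson interval 0.130% to 1.71%) had an overlapping captured region, against 3.74% of partly methylated and 5.71% of mostly methylated regions.

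Both overlapping captured regions were higher in obese. At PRDM16 (59693301 to 59694300) the normalized count ranged from 6.05 to 21.97 with a median of 15.8 in lean, and from 15.9 to 32.98 with a median of 21.1 in obese. The groups overlapped, and the difference was 0.56 ± 0.18 on the log2 scale (SE), with a limma Benjamini-Hochberg adjusted p of 0.00915. The other lay on chromosome 11 (85685201 to 85686300), outside the nearest locus, the unnamed gene ENSSSCG00000025369, over a member of 17 CpGs with 8.12% in lean and 24.4% in obese. Its count had a median of 13.5 in lean (6.62 to 23.2) and 22.7 in obese (10.96 to 26.9), and the limma difference was 0.70 ± 0.21 with an adjusted p of 0.00856.

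Within 1000 bases of a member lay 8 captured regions beside 9 members, and all 8 were higher in obese at an adjusted p under 0.05 by limma, against 27.1% of all captured regions. Besides the pair above they were at TRAF2, FOXK1 and ZIP4 and near USP12, SIK1 and NUDCD3. At TRAF2 the median rose from 30.1 to 51.1 (0.51 ± 0.19 log2), and near USP12 from 14.6 to 23.6 (0.60 ± 0.20). The smallest difference was at ZIP4, with medians of 14.3 and 21.1 (0.42 ± 0.20, limma adjusted p = 0.0471). The direction was not limited to members: 45 of 49 captured regions on partly methylated and 29 of 33 on mostly methylated regions were higher in obese. In RRBS itself, 64.3% of all partly methylated and 27.9% of all mostly methylated regions were higher in obese. The captured list and the members were both chosen by the difference in these animals, so their sharing of a direction is not independent evidence.

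**Figure D3:**
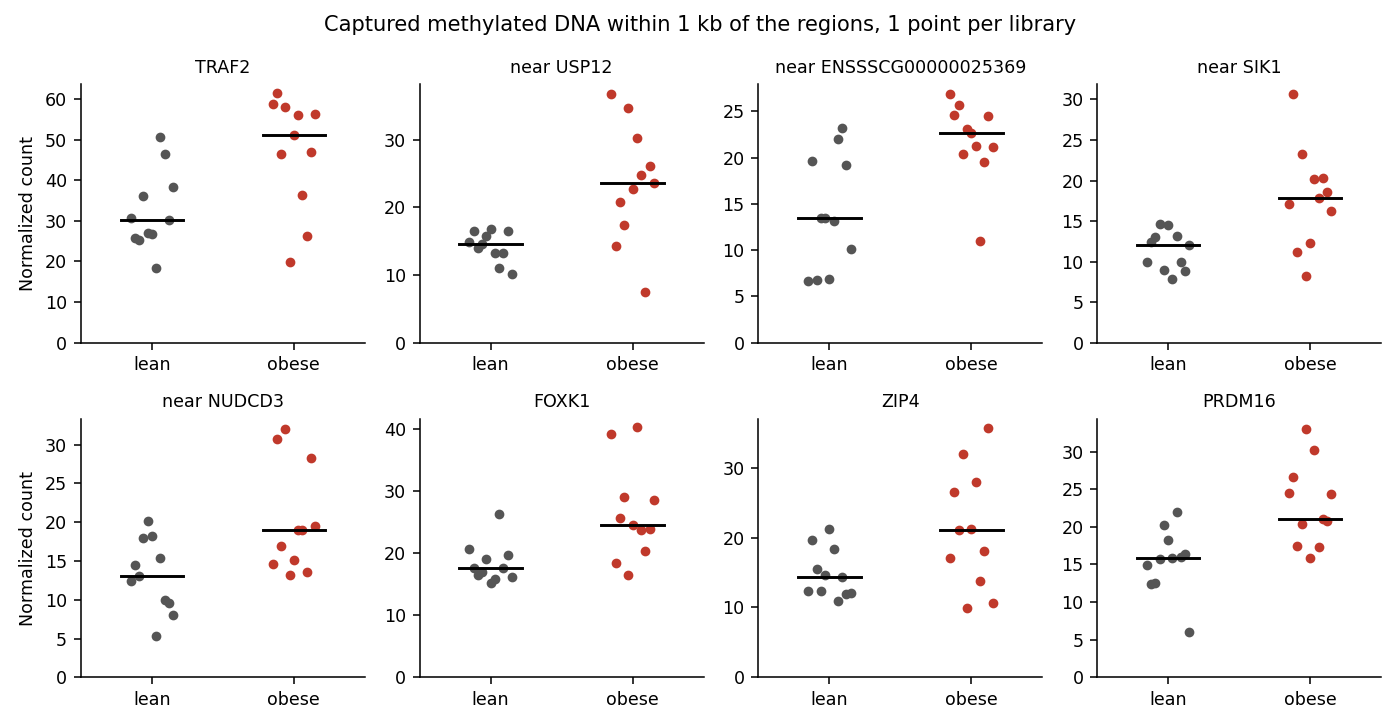
Normalized capture counts in the 8 captured regions within 1 kb of a member, with 1 point per library (11 lean, 11 obese) and the median as a line. Obese medians are above lean medians in each, for example 21.1 against 15.8 at PRDM16, and the groups overlap.

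RNA was measured in 10 boars, and it was not used to choose the regions. The 219 members on loci touched 221 genes, of which 13 had no name. In lean adipocytes these genes had a median of 0.962 FPKM (fragments scaled for transcript length and library size, here also scaled between libraries), against 0.768 for genes on partly methylated regions, 0.257 for genes on mostly methylated regions and 0.297 for all genes in the table. Of the 221 genes, 110 (49.8%, Wilson interval 43.2% to 56.3%) were at 1 FPKM or more in lean, against 40.1% of all genes. At the other end, 52 were under 0.1 FPKM in every pig and 14 of them were listed at 0. So the members lay both on genes that adipocytes use and on genes that were close to silent in lean and obese alike.

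The level differed with the position of the region. The 132 genes with a member within 1000 bases of an end of their own locus had a median of 1.62 FPKM in lean, and 75 of them (56.8%) were at 1 FPKM or more. The 89 genes with members further inside had a median of 0.521 FPKM, and 35 of them (39.3%) were at 1 FPKM or more. The latter loci were also longer, with a median of 65218 bases against 11862. Genes on the regions under 10% in obese had nearly the same lean level as the members' genes, with a median of 0.961 FPKM over 128 genes.

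**Figure D4:**
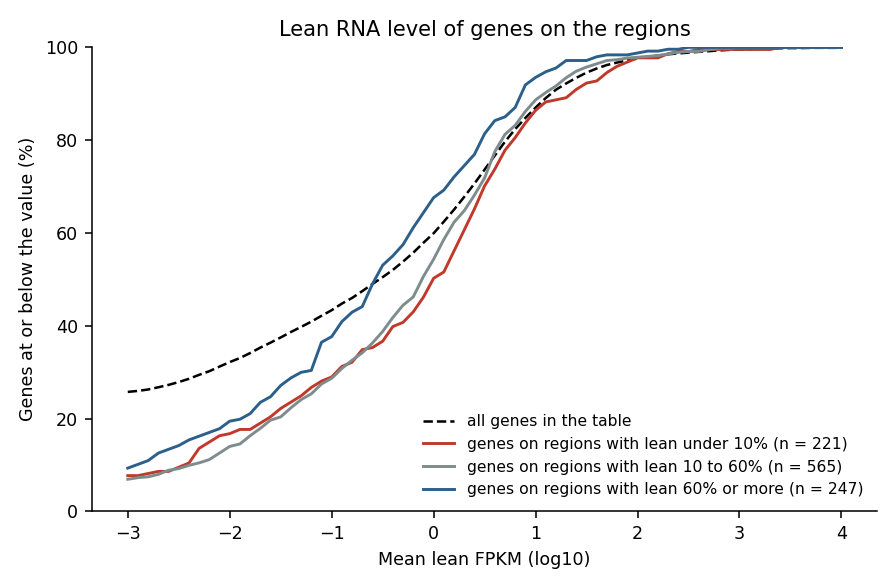
Cumulative share of genes (%) against mean lean FPKM (log10 axis), for genes on regions of each class of lean methylation and for all genes in the table (dashed). The curve of genes on regions under 10% in lean (221 genes, median 0.962 FPKM) lies to the right of that of genes on regions at 60% or more (247 genes, median 0.257 FPKM).

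The developmental factors belonged to the silent end. Of the 15 with a member, 11 were under 0.1 FPKM in every pig, and PRDM16 had a mean of 0.00191 FPKM in lean and 0.00362 FPKM in obese. The median over the 15 was 0.00478 FPKM in lean, next to 0.00500 FPKM for all listed factors found. The exceptions were TWIST2, a repressor of mesenchymal differentiation, with 2.21 ± 0.968 FPKM in lean and 2.70 ± 0.876 FPKM in obese (SD, n = 5), and EBF3 with 1.04 ± 0.142 and 0.972 ± 0.400 FPKM. These were the only 2 that could be tested, and neither passed (limma adjusted p = 0.579 and 0.790).

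Some genes with the highest RNA in lean adipocytes also carried members. RPS20, a protein of the small ribosomal subunit, had 2284 ± 616 FPKM in lean and 1697 ± 418 in obese. Ribosomal protein genes have many near-identical copies, so its value is uncertain. SAT1, which acetylates polyamines, had 387 ± 49.4 and 426 ± 75.7 FPKM, and HSPD1, the mitochondrial chaperonin, 226 ± 23.8 and 221 ± 43.3 FPKM. NDUFA1, a subunit of respiratory complex I, had 191 ± 23.4 and 197 ± 47.8 FPKM, and its region was shared with RNF113A. GADD45G, a stress-induced gene, had 181 ± 92.4 and 101 ± 27.7 FPKM. In each of these 5 genes the groups overlapped, the limma adjusted p was 0.29 or more, and obese methylation at their regions was between 10.9% and 20.8%.

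The comparison of obese with lean RNA was fitted across all 10246 genes with a mean of at least 1 FPKM, with limma on log2(scaled FPKM + 1). Of the 221 genes, 111 were tested and 110 were too low. None passed an adjusted p of 0.05, against 1 gene or 0.00976% of all genes tested. At an unadjusted p under 0.05 there were 27 of the 111 (24.3%), against 20.4% of all genes. Of these, 18 (16.2%) were higher in obese, against 10.98% of all genes, and 9 (8.11%) were lower, against 9.45%. The median difference of the 111 genes was 0.04 on the log2 scale, against 0.01 over all genes. The share lower in obese was close to that of all genes and the share higher was above it. The other classes had the same excess, and no more is read from these shares.

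The other classes gave similar shares. Among 264 tested genes on partly methylated regions 67 (25.4%) had an unadjusted p under 0.05, and among 83 on mostly methylated regions 20 (24.1%). On partly methylated regions 18.6% were higher in obese and 6.82% lower, and on mostly methylated regions 18.1% and 6.02%. Genes on regions under 10% in obese, where methylation was lower in obese, had 12 of 66 (18.2%) higher and 4 (6.06%) lower. In each of these sets, as among the members' genes and all genes, more genes were higher than lower.

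The pigs did not overlap between groups in 6 of the 111 genes, 4 higher (3.60%, against 2.43% of all genes) and 2 lower (1.80%, against 1.68%). These were PPM1F, TBC1D16, BMP6 and TRAF2, and UNG and PTAR1. TRAF2 was named after its values were seen. With 5 pigs against 5, groups that do not overlap always give the smallest two-sided p of the exact permutation test, 0.00794. The 6 genes were picked for having no overlap, so nothing is read from that p.

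PPM1F, a serine/threonine protein phosphatase, had the smallest p among the members' genes. Its FPKM was 2.88, 3.18, 1.604, 2.70 and 2.05 in the lean pigs and 5.64, 4.22, 6.71, 5.52 and 5.16 in the obese pigs. All obese pigs were above all lean pigs, and the limma difference was 0.90 ± 0.15 log2 (SE), with an adjusted p of 0.0540. Its member, at an end of the locus on chromosome 14 (53483172 to 53483466), was below 0.001% in lean and 10.6% in obese, close to the lowest obese level of all members.

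TBC1D16 had 2.16, 2.17, 1.11, 0.936 and 1.77 FPKM in lean and 3.13, 2.57, 3.01, 2.22 and 2.90 FPKM in obese. The lowest obese pig was just above the highest lean pig (0.54 ± 0.15 log2, limma adjusted p = 0.133). Its member lay well inside the locus on chromosome 12 (2500521 to 2500642), 25402 bases from an end.

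BMP6, a growth factor of the bone morphogenetic protein family, had 2.94, 3.47, 3.02, 3.02 and 3.35 FPKM in lean and 3.73, 3.75, 4.35, 4.402 and 3.85 FPKM in obese. All obese pigs were above all lean pigs by a small margin (0.27 ± 0.07 log2, limma adjusted p = 0.130). TRAF2, an adaptor of tumour necrosis factor receptors, had 0.828 ± 0.197 FPKM in lean and 1.42 ± 0.215 FPKM in obese (SD, n = 5), with an adjusted p of 0.120 by limma. Of the 27 genes at an unadjusted limma p under 0.05, TRAF2 and ZIP4 also had a captured region higher in obese beside their member.

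UNG, the uracil glycosylase of DNA repair, was lower in obese. It had 1.54, 1.62, 2.04, 1.54 and 2.26 FPKM in lean and 1.28, 1.24, 1.09, 1.04 and 1.03 FPKM in obese. The limma difference was -0.39 ± 0.10 log2 with an adjusted p of 0.117, and the region, near a locus end, had 1.28% and 15.7%. PTAR1, a protein with prenyltransferase repeats, had 3.20 ± 0.449 FPKM in lean and 2.27 ± 0.164 FPKM in obese (-0.36 ± 0.09 log2, limma adjusted p = 0.117). Its member was the longest of all, 553 bases over the locus end, with 6.31% and 17.3%.

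Among the other genes with an unadjusted p under 0.05, ACTN4 had the largest difference upward. ACTN4, an actin crosslinker, had 46.1 ± 21.3 FPKM in lean and 80.5 ± 20.2 in obese (0.89 ± 0.34 log2). TIMP-2, an inhibitor of matrix metalloproteinases, had 21.5 ± 9.85 and 33.6 ± 6.34 FPKM. ZIP4, a zinc importer, had 1.64 ± 0.743 and 3.01 ± 0.783 FPKM, ARHGAP22 had 2.46 ± 0.698 and 4.13 ± 0.991 FPKM, and C22ORF39 had 1.95 ± 0.631 and 3.64 ± 0.834 FPKM. In all 5 the groups overlapped by at least 1 pig, and the limma adjusted p lay between 0.116 and 0.196.

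Those lower in obese began with COL6A3, a chain of collagen VI, at 3.33, 4.06, 3.37, 4.81 and 2.99 FPKM in lean and 3.95, 1.96, 0.739, 1.06 and 0.737 FPKM in obese. Of the obese pigs, 1 was at the lean level and the other 4 below it (-0.92 ± 0.27 log2, limma adjusted p = 0.142). COL6A1, another chain of collagen VI, varied widely in lean, from 1.07 to 9.80 FPKM, and had 0.950 to 3.79 FPKM in obese (-0.72 log2, limma adjusted p = 0.338). LDHA, the lactate dehydrogenase of anaerobic glycolysis, had 58.4 ± 13.4 FPKM in lean and 35.2 ± 8.24 in obese (-0.72 ± 0.21 log2). KAZALD1, a secreted protein related to the binding proteins of insulin-like growth factors, had 1.63 ± 0.659 and 0.586 ± 0.184 FPKM, with overlap at 1 lean pig (limma adjusted p = 0.112). HSPB11 had 4.11 ± 0.970 and 2.54 ± 0.738 FPKM. At all of these the obese methylation was between 15.5% and 18.3%.

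**Figure D5:**
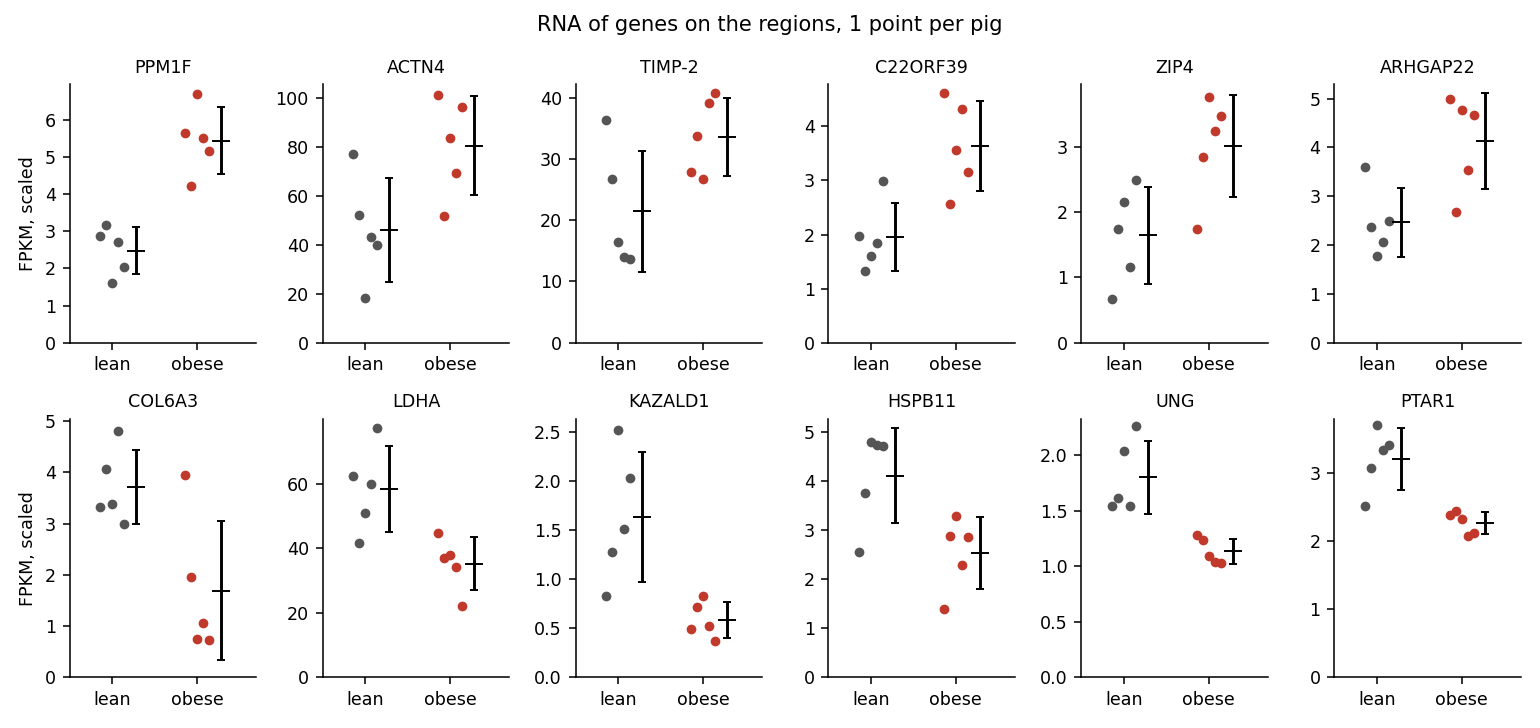
Scaled FPKM (y axis from 0) of the 6 genes with the largest differences upward and the 6 downward among genes on members with an unadjusted p under 0.05, with 1 point per pig and the mean ± SD (5 lean, 5 obese). PPM1F, UNG and PTAR1 show no overlap between groups, and COL6A3 has 1 obese pig at the lean level.

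The remaining genes at an unadjusted p under 0.05 differed by less than the 6 largest in their direction. Higher in obese were FOXO3A, a forkhead factor of insulin and stress signalling (7.19 ± 1.21 and 11.04 ± 2.96 FPKM), ANKRD39, CALCOCO2, ITPK1, EGLN1 (the oxygen-sensing prolyl hydroxylase, 7.10 ± 1.45 and 9.72 ± 0.629 FPKM), WSB2, SCFD2 and PLOD3. Lower were SP140, VWA1 and ADSL. The limma adjusted p was above 0.05 in each.

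SOCS4, a suppressor of cytokine signalling that the study names, had a member 70 bases from an end of its locus on chromosome 1 (204886289 to 204886384), with 2.33% in lean and 16.7% in obese. Its FPKM was 5.39, 5.01, 3.97, 6.203 and 3.62 in lean and 4.11, 9.46, 9.04, 7.43 and 8.15 in obese. Of the obese pigs 4 were above all lean pigs and 1 was among them (0.54 ± 0.20 log2, limma adjusted p = 0.190).

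Of the candidate genes named by the study, HLCS, which attaches biotin to carboxylases, had 25.9 ± 10.5 FPKM in lean and 44.9 ± 4.86 FPKM in obese (0.86 log2, limma adjusted p = 0.133), with the SIM2 region outside its locus. TNS3 had 3.64 ± 1.59 and 5.49 ± 1.62 FPKM, with the groups overlapping. CXCR4 was too low to test, at 0.619 ± 0.303 and 0.558 ± 0.265 FPKM. With its own tests, the study called HLCS and TBC1D16 higher in obese by RNAseq and, in more pigs, by quantitative PCR. It called SOCS4 higher by RNAseq without a check by PCR, and COL6A1 lower by RNAseq but not by PCR. An adjusted p above 0.05 here is therefore not evidence that these genes did not differ. For TBC1D16, HLCS and COL6A1 the study also correlated methylation with expression across pigs. At differentially methylated RRBS regions it reported a positive correlation for TBC1D16 and HLCS and a negative one for COL6A1. At captured regions of HLCS the correlation was negative. Such a comparison was not made here.

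Other measures moved with the groups in RNA. By limma, 968 (9.45%) of all 10246 tested genes were lower in obese and 1125 higher at an unadjusted p under 0.05. Of 19 tested genes known to respond to tissue dissociation, 8 were lower in obese at an unadjusted p under 0.05 and none higher, with a median of -1.01 log2, and their summed level was 812 to 2700 FPKM in lean and 388 to 1590 FPKM in obese. GADD45G is induced by stress, and the part of this response in its values was not tested. The fibroblast list, which holds COL6A1 and COL6A3, had 3 of 12 tested genes lower and none higher (median -0.59 log2, summed level 245 to 729 FPKM in lean and 262 to 642 in obese, DLK1 listed at 0). The part of fibroblast RNA in the collagen values was not tested, and in such samples fewer cells of a type and less RNA per cell cannot be told apart. Of the 15 adipocyte markers 11 were found by name, as 12 tested loci. Of these loci 3 were higher in obese at an unadjusted p under 0.05 and none lower (median 0.28 log2). ADIPOQ, DGAT2, FABP4 and LPL were not found, so nothing is said of them here. By quantitative PCR, the study found ADIPOQ negatively correlated with the amount of retroperitoneal fat. Among the markers found, LEP, the gene of leptin, had the largest difference, with 28.8 FPKM in lean and 118 FPKM in obese (2.296 log2, limma adjusted p = 0.0827). The adipocyte markers summed to 2528 to 2882 FPKM in lean and 2233 to 3441 in obese. The macrophage list summed to 10.1 to 25.9 FPKM in lean and 13.4 to 25.5 in obese with CD163 listed at 0, the endothelial list to 1.58 to 14.3 and 3.71 to 10.98, and the erythroid list to 15.5 to 98.9 and 20.8 to 49.6 with SLC4A1 listed at 0.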

How the data were processed

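RRBS, mDNAcap and RNAseq values were used as the authors deposited them. Per the labels and methods, RRBS reads were mapped with Bismark 0.10 and Bowtie2 2.1.0 to Sscrofa10.2, and the deposited regions from metilene give group mean methylation as a fraction, shown here as a percent. The authors' file does not state whether positions count from 0 or 1. The deposited mDNAcap signal is a count normalized by diffReps in windows of 1000 bases; its 11 values per group carry no pig names. The authors mapped RNA with STAR 2.3.1, and Cufflinks 2.2.0 gave the deposited FPKM; no read totals were used, so depth is unknown. Between 8945 and 10287 genes per library reached 1 FPKM, the fewest in the second library of pig-572. Columns with the authors' own score, p-value, q-value and fold change were not used.

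Regions and gene loci were matched by an overlap of at least 1 base. FPKM was scaled by the median of ratios (factors 0.697 to 1.21), pig-572 entered as the mean of its 2 libraries, and log2(FPKM + 1) was fitted with limma 3.58.1 in R 4.3.3, with Benjamini-Hochberg adjustment over 10246 genes with a mean of at least 1 FPKM. The capture counts were fitted likewise over 7401 regions. Both steps were tested on simulated data. The pigs of a group were separate animals. Of 25285 gene IDs, 17794 were named in the files and 1157 by the reference list. Named regions were the 8 with the highest obese mean, the 4 with the most CpGs, those overlapped by captured regions, those on listed genes (the 6 largest differences of a longer list) and those at genes the study named. Named genes were the 6 largest differences upward and downward at an unadjusted p under 0.05, the 5 highest in lean and those the study named. Genes outside this rule were named after their values were seen. A result for a gene that the rule would name is not reported here. The members and gene lists were chosen with earlier results of these data known. Alternatives covered the pseudocount, filter, scaling, the libraries of pig-572, each pig left out, locus extension and stricter lean limits.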

Additional observations from a re-analysis of the deposited data

How the results depend on the processing

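The number of regions was 252 at a lean limit of 5% and 119 in the table requiring 5 pigs per group, by fewer regions passing. The share on a locus was 57.5% at the 5% limit and 68.6% with loci extended by 5000 bases. The count of genes with an adjusted p under 0.05 in RNA was 0. Keeping the libraries of pig-572 separate gave 2 (PPM1F and KAZALD1, with 158 of all genes). With both libraries taken to be from pig-572, that setting counts 1 pig as 2 samples, so its p-values are too small to be read as a result. Leaving out 1 pig at a time gave 0 to 4: it was 4 without lean pig-402 (PPM1F, KAZALD1, PTAR1 and EGLN1, with 147 of all genes) and 0 without any other pig. The cause was not tested. The count at an unadjusted p under 0.05 was 19 to 34 when a pig was left out, while that of all genes was 1430 to 2679. It was 41 with extended loci and 17 at the 5% lean limit. Those counts are on gene sets of other sizes, and no share is read from them. Without chromosome X, an alternative chosen after seeing the data, the count at an unadjusted p under 0.05 stayed at 27. Captured regions numbered 8 instead of 2 within 1000 bases. Scaling capture counts by the median of ratios moved the median of all captured regions from -0.67 to -0.37 log2 and the calls to 2125 higher and 807 lower, and both overlapping regions were still called higher. Of the values of the 23 named genes tested, 6 passed the threshold under an alternative, 7 changed sign and the rest kept direction and side of it. The 7 that changed sign were in genes near zero difference: HSPD1 (-0.14 to 0.03 with a pig left out, above 0 without obese pig-433) and NDUFA1 (-0.01 without size factors, -0.10 to 0.11 with a pig left out). No paired analysis was possible because lean and obese pigs share no replicate pairing: the pig numbers differ between groups. Without values per pig in RRBS, no region could be tested again here. The study tested its regions with metilene, and those p-values were not used.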
